A study of Mus musculus with 12 samples.

Results

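The 10 genes described here are receptors and ligands of the PDGF and ErbB growth factor families, with the NG2 proteoglycan gene as a partner of the PDGF alpha receptor: Pdgfra, Cspg4, Pdgfa, Pdgfb, Egfr, Erbb2, Erbb3, Erbb4, Nrg1 and Nrg3. They were taken by symbol from the 53465 genes counted in each library. The list was drawn up with earlier results of these data known, although its rule uses no measured value. RNA was sequenced from the brachial and thoracic spinal cord of C57BL/6 mice at postnatal day 7, all carrying the Aldh1L1-GFP and Olig2-tdTomato reporters. Aldh1l1 is a folate-metabolism gene used to mark astrocytes, and Olig2 encodes a helix-loop-helix factor found in ventral spinal progenitors and oligodendroglia. Papain-dissociated cells were sorted by fluorescence into 3 fractions of 4 libraries each, numbered 1, 2, 3 and 5, called eGFP, tdTomato and eGFP/tdTomato. No fraction was treated and no reporter-free sample is among them. How many mice went into a library and how the gates were set is not stated in the labels, and all p-values therefore refer to the spread among the libraries.

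PDGF ligands are dimers that bring together receptor tyrosine kinases at the cell surface. PDGF-A signals through the alpha receptor, which marks oligodendrocyte progenitors together with NG2 and drives their division and migration. The ErbB receptors work in pairs: EGFR binds EGF-like ligands such as TGF-alpha and HB-EGF, ERBB3 and ERBB4 bind neuregulins, ERBB2 has no ligand of its own and serves as the common partner, and ERBB3 has little kinase activity of its own. In the developing cord neuregulins act on glial survival and myelination, and EGFR signalling acts on astrocytes and on glial progenitors.

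The sums of marker genes separated tdTomato from the GFP-bearing fractions, although single markers did not all do so. Summed CPM (gene counts relative to the library total, scaled with TMM factors that adjust for library composition) of 12 astrocyte markers ran from 33900 to 49700 in eGFP, from 45100 to 52900 in eGFP/tdTomato and from 490 to 643 in tdTomato. Summed CPM of 12 myelin genes ran from 115000 to 170000 in tdTomato, from 462 to 1360 in eGFP and from 1680 to 3390 in eGFP/tdTomato, and that of 14 oligodendrocyte progenitor markers from 3380 to 5490, from 565 to 1020 and from 874 to 1590. In eGFP against tdTomato 11 of the 12 astrocyte markers were called higher (20.4% of all genes) and S100b lower (mean 154 against 297 CPM). In eGFP/tdTomato against tdTomato 11 of the 12 myelin genes and 10 of the 14 progenitor markers were called lower (12.4% of all genes). The progenitor marker C1ql1 averaged 13.7, 14.0 and 15.1 CPM in eGFP, eGFP/tdTomato and tdTomato. Between eGFP/tdTomato and eGFP, 8 of the 12 myelin genes and 4 of the 14 progenitor markers were called, all higher in eGFP/tdTomato. Of 10 markers of differentiating oligodendrocytes 5 were called higher and 1 lower, and 2 of the 12 astrocyte markers were called higher. Over all genes 2.49% were called in that comparison. Markers of other cell types also separated eGFP from eGFP/tdTomato. The summed CPM of 10 ependymal markers was 259 to 517 in eGFP and 20.6 to 34.1 in eGFP/tdTomato (9 of 10 called), and that of 14 microglia and macrophage markers was 147 to 1150, highest in eGFP replicate 5, and 91.0 to 108 (7 of 14 called). For 16 cell cycle genes it was 170 to 253 in eGFP and 345 to 403 in eGFP/tdTomato (5 of 16 called). The part of these cells in any difference between eGFP/tdTomato and eGFP below was not tested. The libraries held 12564767 to 36505583 gene counts, and 21.2% to 57.1% of the reads tallied per library fell outside annotated genes. Replicate 1 of eGFP stood apart, with the fewest gene counts, the largest share outside genes and the highest background of silent genes, measured as olfactory receptor transcripts at 0.568 CPM per kb against 0.00886 to 0.319 in the other 11 libraries.

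The RefSeq promoters of 7 of the 10 genes were at hand. Those of the alpha receptor pair and of the EGFR pair are shown, since these pairs lie on opposite sides of the comparison described next. Each is the 250 bases before the annotated start on the plus strand of GRCm38.p6: chr5:75152001-75152250 for Pdgfra, chr9:56864854-56865103 for Cspg4, chr11:16751953-16752202 for Egfr and chr11:98412234-98412483 for Erbb2. Capitals mark an E-box, CANNTG, the letters that basic helix-loop-helix factors such as OLIG2 bind.
Pdgfra: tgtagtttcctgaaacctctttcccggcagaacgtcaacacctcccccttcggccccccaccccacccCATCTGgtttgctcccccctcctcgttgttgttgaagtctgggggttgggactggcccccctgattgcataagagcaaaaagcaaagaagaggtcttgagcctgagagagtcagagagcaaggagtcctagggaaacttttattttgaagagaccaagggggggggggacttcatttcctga
Cspg4: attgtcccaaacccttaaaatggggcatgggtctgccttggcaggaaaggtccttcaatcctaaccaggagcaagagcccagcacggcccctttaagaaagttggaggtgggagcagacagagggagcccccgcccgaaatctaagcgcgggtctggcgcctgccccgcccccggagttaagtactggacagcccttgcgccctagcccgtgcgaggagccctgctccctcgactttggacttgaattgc
Egfr: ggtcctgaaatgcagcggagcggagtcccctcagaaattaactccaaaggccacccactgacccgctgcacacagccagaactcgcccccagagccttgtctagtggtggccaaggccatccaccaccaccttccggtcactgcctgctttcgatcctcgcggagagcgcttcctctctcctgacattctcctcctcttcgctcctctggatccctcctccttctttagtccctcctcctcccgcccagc
Erbb2: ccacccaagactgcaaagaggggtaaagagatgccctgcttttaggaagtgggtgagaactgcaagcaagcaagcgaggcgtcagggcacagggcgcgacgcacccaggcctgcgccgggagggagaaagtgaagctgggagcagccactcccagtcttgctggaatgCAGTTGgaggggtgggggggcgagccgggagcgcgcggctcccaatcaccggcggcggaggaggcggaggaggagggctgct
Pdgfra held 1 E-box, 182 bases before its start, and Erbb2 held 1, 82 bases before its start, while Cspg4 and Egfr held none. On either strand CANNTG occurred in 66.2% of 32851 promoters of this length, so its presence in these windows is the common case. The GC-box letters GGGCGG occurred 2 times in the Cspg4 stretch and 1 time in that of Egfr, against 32.7% of all promoters with at least 1. None of the 4 held the TATA letters TATAAA (12.4% of all promoters) or the SOX-type letters ACAAAG (16.5%). GC content was 54.4% in Pdgfra, 60.4% in Cspg4, 60.8% in Egfr and 66.0% in Erbb2, with a median of 52.4% over all promoters. These matches describe letters only and say nothing about binding.

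The 10 genes fell into 3 patterns across the fractions. Pdgfra, Cspg4, Pdgfa, Erbb3, Nrg1 and Erbb4 were highest in tdTomato, Egfr and Erbb2 were higher in both GFP-bearing fractions than in tdTomato, and Pdgfb and Nrg3 were low throughout. All 10 passed the filter on low counts. By edgeR's quasi-likelihood test with Benjamini-Hochberg adjustment over 29361 genes, 8 of the 10 differed between eGFP/tdTomato and tdTomato, 2 higher and 6 lower in eGFP/tdTomato. Of all genes tested in that comparison 29.2% were called, 16.8% higher and 12.4% lower. The libraries of these fractions did not overlap for the same number of the 10, 2 higher and 6 lower, against 35.4% of all genes, 20.6% higher and 14.8% lower. In the comparison of eGFP with tdTomato 8 of the 10 differed as well, 2 higher and 6 lower in eGFP, where 35.2% of all genes were called, 20.4% higher and 14.9% lower. Libraries did not overlap there for 9 of the 10, 3 higher and 6 lower, against 33.9% of all genes, 19.6% higher and 14.3% lower. By edgeR none of the 10 was called between eGFP/tdTomato and eGFP, against 2.49% of all genes, 0.814% higher and 1.67% lower. In that comparison 4 of the 10 had an unadjusted p under 0.05. DESeq2 called 2 of the 10 and 1498 of all genes, where edgeR called 730 of all genes. By limma-voom 1 of the 10 was called. For limma-voom and for the unadjusted p the share over all genes is not given here. Libraries did not overlap for 2 of the 10, Cspg4 and Egfr, both higher in eGFP/tdTomato, against 7.94% of all genes, 3.75% higher and 4.18% lower. The 3 comparisons share libraries and are not independent of each other. The median log2 fold change of the 10 genes was -1.29 against 0.70 over all genes for eGFP/tdTomato against tdTomato, and -1.59 against 0.79 for eGFP against tdTomato.

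**Figure D1:**
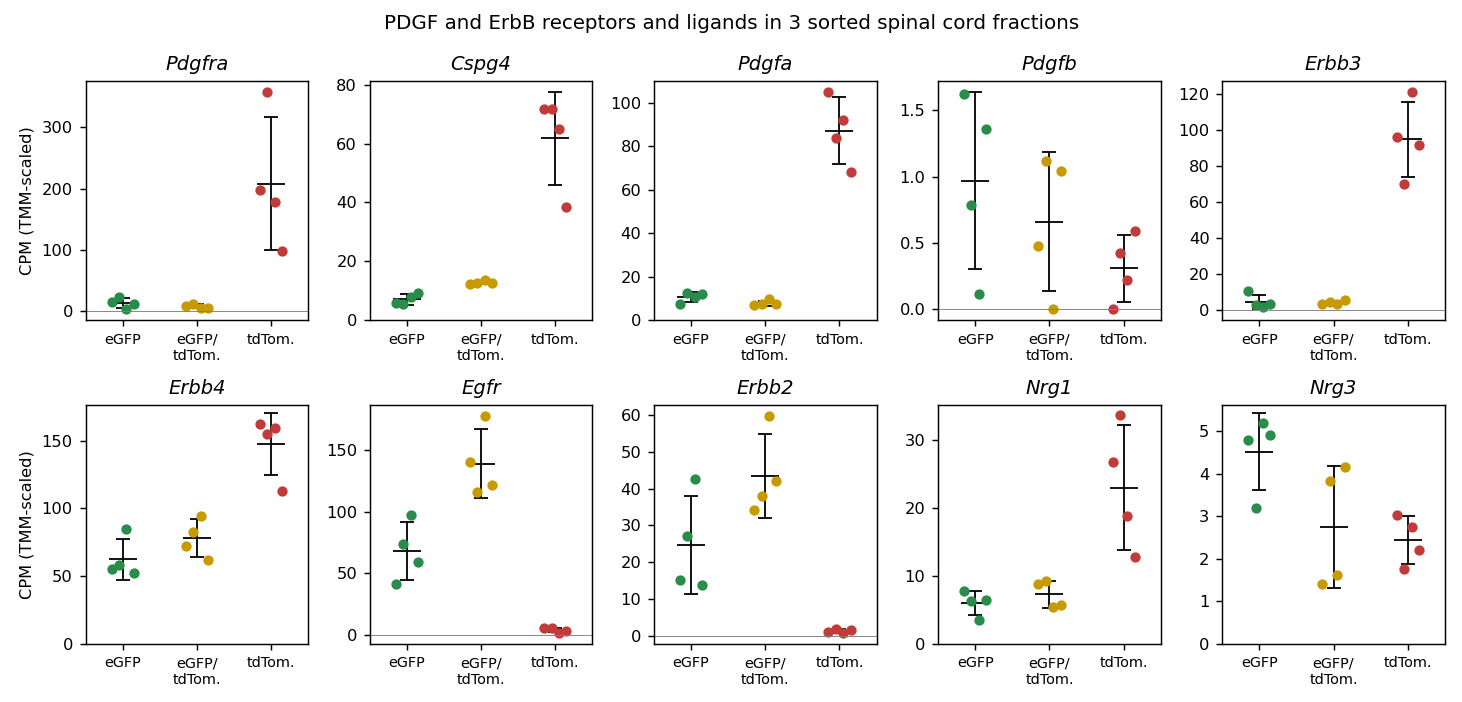
CPM (TMM-scaled, linear axes, a separate scale for each gene) of the 10 genes in every library of the eGFP, eGFP/tdTomato and tdTomato fractions; points are libraries, the long bar is the mean and the whiskers are 1 SD (n = 4). In 6 panels the 4 tdTomato libraries lie above all others, and in the panels of Egfr and Erbb2 they lie below all others.

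Pdgfra (ENSMUSG00000029231, chromosome 5, 75152292 to 75198215, plus strand of GRCm38) encodes the PDGF alpha receptor. Its level in tdTomato replicates 1, 2, 3 and 5 was 198, 358, 178 and 98.7 CPM. In eGFP the same numbers gave 15.5, 22.7, 3.24 and 11.2 CPM, and in eGFP/tdTomato 8.90, 11.8, 4.82 and 5.67 CPM. Every tdTomato library lay above every other library, and the GFP-bearing fractions overlapped each other. The log2 fold change was -4.74 ± 0.55 (SE; adjusted p = 5.96e-06, edgeR) for eGFP/tdTomato against tdTomato and -3.99 ± 0.53 (adjusted p = 2.26e-05) for eGFP against tdTomato. In eGFP/tdTomato against eGFP it was -0.75 ± 0.48 (adjusted p = 0.785). In bulk fractions such as these, fewer cells expressing a gene and less RNA per cell cannot be told apart.

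Pdgfra is also a fibroblast gene, and markers of mural cells and fibroblasts were read beside it. The summed CPM of 14 such markers was 883, 2110, 763 and 1280 in eGFP replicates 1, 2, 3 and 5, highest and lowest in the same libraries as Pdgfra. Replicate 5 had a higher sum than replicate 1 but a lower Pdgfra level. In eGFP/tdTomato the sum was 358, 415, 553 and 485, where the library with the highest sum had the lowest Pdgfra level. Col1a2 carried most of that sum, with a mean of 408 CPM in eGFP/tdTomato against 476 in eGFP, while Col1a1 averaged 12.4 against 194 and Col3a1 6.33 against 177. In tdTomato the sum ran from 9.85 to 21.1, and 6 of the 14, among them Acta2, Lum and Kcnj8, were under 1 CPM in every tdTomato library. Dcn, a fibroblast matrix gene, averaged 308 CPM in eGFP, 4.44 in eGFP/tdTomato and 1.56 in tdTomato. The mural and fibroblast sums were lowest in tdTomato, where Pdgfra was highest. The part of these cells in the Pdgfra level of eGFP or of tdTomato was not tested.

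Cspg4 (ENSMUSG00000032911, chromosome 9, 56865033 to 56899870, plus strand) encodes NG2, a surface proteoglycan of oligodendrocyte progenitors and pericytes. Replicates 1, 2, 3 and 5 gave 71.8, 71.8, 65.1 and 38.4 CPM in tdTomato, 12.1, 12.6, 13.5 and 12.6 CPM in eGFP/tdTomato, and 5.63, 5.31, 7.98 and 9.09 CPM in eGFP. The 3 fractions did not overlap at any point and eGFP/tdTomato was intermediate. Cspg4 was lower than in tdTomato by edgeR in eGFP/tdTomato (log2 fold change -2.28 ± 0.23, adjusted p = 1.59e-06) and in eGFP (-3.14 ± 0.24, adjusted p = 6.99e-08). Between eGFP/tdTomato and eGFP the log2 fold change was 0.85 ± 0.23, with an adjusted p of 0.0713 by edgeR's quasi-likelihood test. That difference passed the threshold under DESeq2 (0.81, adjusted p = 0.00997), under a filter of 1 CPM in 4 libraries (0.78, adjusted p = 0.0383) and without tdTomato replicate 5 (0.87, adjusted p = 0.0303). It also passed with a covariate for the olfactory receptor background (0.83, adjusted p = 0.028). In the other 18 of 22 alternative fits it was not called, with adjusted p up to 0.278. In eGFP replicate 1 the level was 0.83 times that of silent genes of the same length, so at this depth it was not above background there.

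The balance of the alpha receptor and NG2 within a library does not depend on scaling between libraries. The log2 ratio of Pdgfra to Cspg4 counts was 1.46, 2.32, 1.45 and 1.36 in tdTomato replicates 1, 2, 3 and 5, and -0.44, -0.09, -1.48 and -1.15 in eGFP/tdTomato. In eGFP it spread from -1.30 to 2.09 and overlapped both other fractions. The fractions eGFP/tdTomato and tdTomato differed by -2.44 ± 0.39 (SE) with an unadjusted p of 0.0286 in a two-sided exact permutation test. That is the smallest p that 4 against 4 libraries can give, and over the 15 ratio tests made it became 0.0857, so no ratio was called.

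Erbb3 (ENSMUSG00000018166, chromosome 10, 128567523 to 128589652, minus strand) encodes a neuregulin receptor. In tdTomato replicates 1, 2, 3 and 5 it reached 96.0, 70, 121 and 91.3 CPM. In eGFP it was 10.3, 2.63, 1.43 and 2.94 CPM, and in eGFP/tdTomato 3.00, 4.23, 3.01 and 5.11 CPM. The tdTomato libraries did not overlap with the others, and the single higher value among the GFP-bearing libraries was in eGFP replicate 1, which also had the highest background. Per kb Erbb3 was 2.23 to 3.33 times the level of silent genes in eGFP and 2.04 to 8.5 times in eGFP/tdTomato. In tdTomato it was 103 to 2270 times that level. The log2 fold change was -4.62 ± 0.49 (adjusted p = 2.34e-06, edgeR) for eGFP/tdTomato against tdTomato and -4.48 ± 0.49 (adjusted p = 2.89e-06) for eGFP against tdTomato. Without eGFP replicate 1 the latter was -5.50. Erbb3 is a Schwann cell gene as well. The summed CPM of 9 Schwann cell markers was 28.0 to 38.2 in tdTomato, below the 44.9 to 62.3 in eGFP. Egr2 carried most of the eGFP sum (mean 33.0 CPM, against 3.00 in tdTomato). Cdh19 went the other way, with 17.3 to 31.5 CPM in tdTomato and 3.17 to 12.2 in eGFP. The part of Schwann cells in the Erbb3 level was not tested.

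Erbb4 (ENSMUSG00000062209, chromosome 1, 68032186 to 69108059, minus strand) encodes the second neuregulin receptor of the family, with a kinase of its own. It was present at substantial levels in all 3 fractions, with 54.9, 57.8, 84.7 and 51.9 CPM in eGFP replicates 1, 2, 3 and 5, 72.4, 82.3, 94.6 and 61.6 CPM in eGFP/tdTomato, and 162, 155, 159 and 113 CPM in tdTomato. The tdTomato libraries again lay above all others, by a smaller margin than for Erbb3. Erbb4 had a log2 fold change of -0.92 ± 0.20 (adjusted p = 0.00238, edgeR) for eGFP/tdTomato against tdTomato and -1.24 ± 0.20 (adjusted p = 0.000177) for eGFP against tdTomato. Between the GFP-bearing fractions it was 0.32 ± 0.20 (adjusted p = 0.767).

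The proportion of the neuregulin receptors to each other was taken within libraries. The log2 ratio of Erbb3 to Erbb4 counts was -0.76, -1.15, -0.39 and -0.30 in tdTomato replicates 1, 2, 3 and 5, but -4.59, -4.28, -4.96 and -3.59 in eGFP/tdTomato and -2.42, -4.44, -5.87 and -4.13 in eGFP. Neither GFP-bearing fraction overlapped with tdTomato. The difference was -3.70 ± 0.35 for eGFP/tdTomato and -3.56 ± 0.73 for eGFP (each unadjusted p = 0.0286, two-sided exact permutation test, the smallest possible, adjusted p = 0.0857). Neuron markers were read beside Erbb4, which interneurons also express. Their sum over 14 genes was 460 to 687 CPM in tdTomato, 89.5 to 114 in eGFP and 58.0 to 86.2 in eGFP/tdTomato. Elavl3 alone averaged 479 CPM in tdTomato, and without overlap Elavl4 (mean 27.6 CPM) and Tubb3 (10.8) were also highest there. Other markers went the other way, among them Gad2 (mean 0.448 CPM in tdTomato, 16.1 in eGFP) and Stmn2 (1.51 and 13.4), while Gad1 (4.50 and 5.71) and Snap25 (26.7 and 23.3) overlapped between those fractions. The part of neurons in the Erbb4 level was not tested.

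Egfr (ENSMUSG00000020122, chromosome 11, 16752203 to 16918158, plus strand) encodes the EGF receptor. It reached 140, 116, 178 and 122 CPM in eGFP/tdTomato replicates 1, 2, 3 and 5 and 41.4, 73.9, 97.7 and 59.2 CPM in eGFP, against 5.30, 5.90, 1.75 and 3.25 CPM in tdTomato. The 3 fractions did not overlap, and eGFP/tdTomato was the highest. By edgeR the log2 fold change was 5.10 ± 0.38 (adjusted p = 5.02e-08) for eGFP/tdTomato against tdTomato and 4.07 ± 0.36 (adjusted p = 3.34e-07) for eGFP against tdTomato. Between eGFP/tdTomato and eGFP it was 1.03 ± 0.32 with an adjusted p of 0.139 by edgeR. That difference was called by DESeq2 (0.99, adjusted p = 0.0349), by limma-voom (1.07, adjusted p = 0.0257) and without eGFP replicate 3 (1.27, adjusted p = 0.0467). It was not called in the other 19 of 22 alternative fits, with adjusted p up to 0.625. The tdTomato level was 1.95 to 17.4 times that of silent genes per kb, so a residual signal was above background in each of the 4 libraries.

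Erbb2 (ENSMUSG00000062312, chromosome 11, 98412470 to 98437716, plus strand), the shared partner receptor, was called in the direction of Egfr and opposite to Erbb3 and Erbb4. It was 34.2, 37.9, 59.8 and 42.0 CPM in eGFP/tdTomato replicates 1, 2, 3 and 5, 15.3, 27.1, 42.5 and 13.8 CPM in eGFP, and 0.980, 1.87, 0.855 and 1.62 CPM in tdTomato. All 8 GFP-bearing libraries lay above the 4 tdTomato libraries, and the GFP-bearing fractions overlapped. Erbb2 had a log2 fold change of 5.01 ± 0.41 (adjusted p = 1.29e-07, edgeR) for eGFP/tdTomato against tdTomato and 4.19 ± 0.40 (adjusted p = 5.90e-07) for eGFP against tdTomato. For eGFP/tdTomato against eGFP it was 0.82 ± 0.34 (adjusted p = 0.376), and without eGFP replicate 3 it was 1.23 (adjusted p = 0.0390). In the other 21 of 22 alternative fits this difference was not called. In the tdTomato fraction Erbb3 and Erbb4 were found at high levels beside an Erbb2 level of 22 to 62 counts per library.

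The log2 ratio of Egfr to Erbb2 counts averaged 1.69 ± 0.23 in eGFP/tdTomato, 1.55 ± 0.38 in eGFP and 1.52 ± 0.67 in tdTomato (SD, n = 4). The differences between fractions were 0.14 ± 0.22, 0.17 ± 0.35 and 0.03 ± 0.39 (SE), and all fractions overlapped. A difference in this ratio was not detectable with 4 libraries a fraction. In tdTomato the ratio rests on 22 to 62 Erbb2 counts per library. In tdTomato replicate 5 Egfr and Erbb2 were only 1.95 and 2.12 times the level of silent genes per kb. In eGFP, Egfr and Erbb2 were both highest in replicate 3, the eGFP library with the smallest share of reads outside genes, 29.1%. The part of that share in the spread was not tested. With that share as a covariate in the fit, none of the 10 genes was called between eGFP/tdTomato and eGFP, the same as without it. Over all genes 1175 were called with the covariate and 730 without it.

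**Figure D2:**
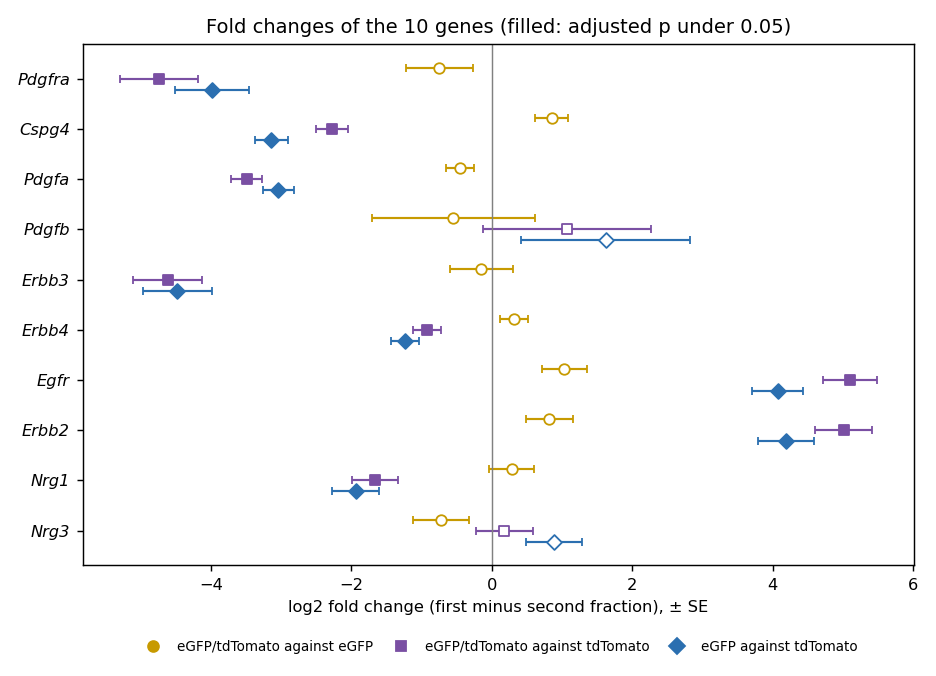
Log2 fold changes (first minus second fraction) of the 10 genes in the 3 comparisons, with whiskers of 1 SE; filled symbols have an adjusted p under 0.05 by edgeR's quasi-likelihood test and open symbols do not. Symbols of both comparisons with tdTomato lie together, left of 0 for 6 genes and right of 0 for Egfr and Erbb2, and every symbol of eGFP/tdTomato against eGFP is open.

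Of the ligands, Pdgfa (ENSMUSG00000025856, chromosome 5, 138976014 to 138997370, minus strand), the ligand of the alpha receptor, was highest in the same fraction as its receptor. It was 105, 83.5, 91.8 and 68.1 CPM in tdTomato replicates 1, 2, 3 and 5, 7.36, 12.4, 10.5 and 12.1 CPM in eGFP, and 6.85, 7.18, 9.53 and 7.33 CPM in eGFP/tdTomato. The tdTomato libraries did not overlap with the others. The log2 fold change was -3.49 ± 0.22 (adjusted p = 8.88e-09, edgeR) for eGFP/tdTomato against tdTomato and -3.04 ± 0.22 (adjusted p = 2.69e-08) for eGFP against tdTomato. The antisense gene 6330403L08Rik shares 26.1% of the merged exon bases of Pdgfa. It averaged 2.23, 2.44 and 11.1 CPM in eGFP, eGFP/tdTomato and tdTomato, and with the strand setting of the counting not given in the sources used here, reads of the overlap cannot be assigned with certainty.

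Pdgfb (ENSMUSG00000000489, chromosome 15, 79995874 to 80014977, minus strand), a ligand of both PDGF receptors made by endothelium among other cells, was at the level of silent genes. It had 0 to 36 counts per library, or 0.113 to 1.62 CPM in eGFP, 0 to 1.12 in eGFP/tdTomato and 0 to 0.590 in tdTomato. Per kb it was above the olfactory receptor level in 2, 1 and 2 of the 4 libraries of those fractions. No difference was detectable at this depth.

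Nrg1 (ENSMUSG00000062991, chromosome 8, 31814551 to 32884029, minus strand) encodes neuregulin 1, which binds ERBB3 and ERBB4. It was 26.7, 33.6, 18.7 and 12.7 CPM in tdTomato replicates 1, 2, 3 and 5, 8.83, 9.17, 5.42 and 5.67 CPM in eGFP/tdTomato, and 7.75, 6.33, 3.46 and 6.45 CPM in eGFP. The lowest tdTomato library still lay above the highest of the others. Nrg1 had a log2 fold change of -1.66 ± 0.33 (adjusted p = 0.000979, edgeR) for eGFP/tdTomato against tdTomato and -1.94 ± 0.33 (adjusted p = 0.000246) for eGFP against tdTomato.

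Nrg3 (ENSMUSG00000041014, chromosome 14, 38368952 to 39473088, minus strand), a neuregulin that binds ERBB4, was 4.79, 3.19, 5.19 and 4.90 CPM in eGFP replicates 1, 2, 3 and 5. It was 1.40, 3.83, 1.62 and 4.15 CPM in eGFP/tdTomato and 3.03, 1.75, 2.75 and 2.21 CPM in tdTomato. The eGFP libraries lay above those of tdTomato, with a log2 fold change of 0.89 ± 0.40 and an adjusted p of 0.0974 by edgeR, and the other comparisons overlapped. Both neuregulins were low in the GFP-bearing fractions, and near background in some of their libraries. Per kb Nrg1 was 1.32 to 4.65 times the level of silent genes in eGFP and 2.46 to 8.89 times in eGFP/tdTomato. For Nrg3 the ranges were 1.24 to 10.5 and 0.839 to 4.03 times. Less the olfactory receptor level, mean CPM of Nrg1 was 3.43 in eGFP and 5.09 in eGFP/tdTomato, and that of Nrg3 was 2.83 and 1.31, with 1 eGFP/tdTomato library at 0.839 times background. Within libraries the log2 ratio of Nrg1 to Nrg3 counts was 2.51 to 4.26 in tdTomato, 0.45 to 2.64 in eGFP/tdTomato and -0.58 to 0.98 in eGFP. Between eGFP and tdTomato it differed by -2.79 ± 0.51 (unadjusted p = 0.0286, two-sided exact permutation test, adjusted p = 0.0857).

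**Figure D3:**
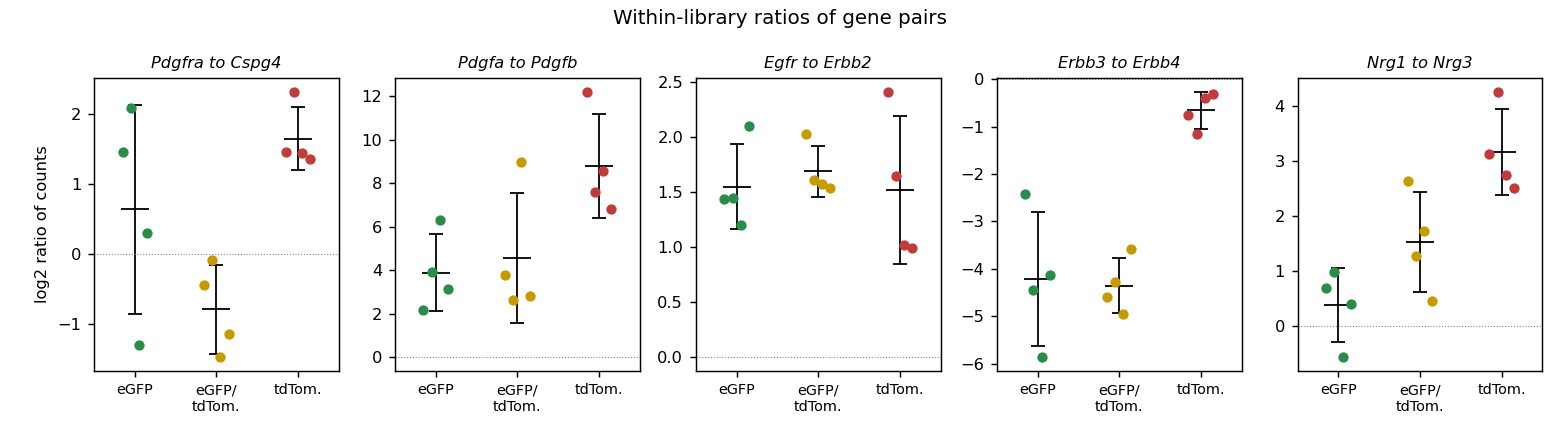
Log2 ratio of the counts of 2 genes in the same library, with 0.5 added to each count, for 5 pairs in the 3 fractions; points are libraries, the long bar is the mean and the whiskers are 1 SD (n = 4), and the dotted line marks equal counts. The ratio of Erbb3 to Erbb4 separates tdTomato from the rest, while that of Egfr to Erbb2 overlaps in all fractions; in the pair of Pdgfa and Pdgfb the highest values belong to libraries with 0 Pdgfb counts.

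Set against exon length, which allows genes to be compared with each other, the order of levels differed between fractions. In CPM per kb the highest of the 10 in tdTomato were Pdgfa (27.9 ± 4.94), Pdgfra (20.7 ± 10.8), Erbb3 (15.7 ± 3.48) and Erbb4 (11.9 ± 1.88, SD, n = 4). Pdgfra spread from 9.85 to 35.7 and overlapped with each of its neighbours in that order. In eGFP/tdTomato the order was Egfr (12.3 ± 2.46), Erbb2 (8.34 ± 2.18), Erbb4 (6.29 ± 1.14) and Pdgfa (2.48 ± 0.391), with Egfr and Erbb2 overlapping and Erbb2 and Erbb4 overlapping. In eGFP Egfr (6.01 ± 2.10), Erbb4 (5.04 ± 1.22) and Erbb2 (4.73 ± 2.55) overlapped with one another and Pdgfa followed at 3.39 ± 0.737.

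**Figure D4:**
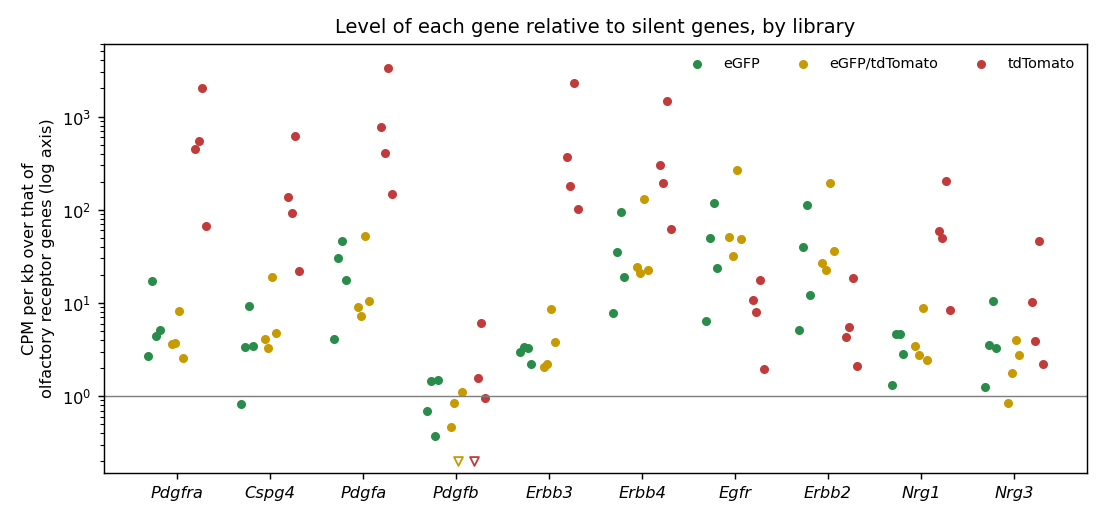
Level of each gene per kb of exon divided by that of olfactory receptor genes in the same library, on a log axis; points are libraries of the 3 fractions, the line at 1 is the level of silent genes and open triangles are libraries with 0 counts. Pdgfb lies around the line in all fractions, and Pdgfra, Pdgfa, Erbb3 and Erbb4 in tdTomato lie 62.1 to 3320 times above it.

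The rest of the PDGF family was found on the other side. All 4 other genes of the family tested, Pdgfc, Pdgfd, Pdgfrb and Pdgfrl, were higher in eGFP/tdTomato than in tdTomato and higher in eGFP than in tdTomato (medians of the log2 fold change 5.00 and 5.2, against 0.70 and 0.79 over all genes). Over all genes 16.8% and 20.4% were called higher in those comparisons. Pdgfd, a ligand of the beta receptor, was 103, 179, 131 and 128 CPM in eGFP replicates 1, 2, 3 and 5, 125, 143, 134 and 110 CPM in eGFP/tdTomato and 0.0445, 1.29, 0.558 and 0.590 CPM in tdTomato. Its log2 fold change against tdTomato was 7.61 ± 0.48 (adjusted p = 8.82e-09, edgeR) in eGFP/tdTomato and 7.69 ± 0.48 (adjusted p = 7.89e-09) in eGFP. Without tdTomato replicate 2, the tdTomato library with the most Pdgfd, these were 8.27 and 8.34. Per kb, Pdgfd in eGFP (42.9 ± 10.1) exceeded Pdgfa in the same fraction (3.39 ± 0.737, SD, n = 4), with no overlap.

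Pdgfrb, the beta receptor of pericytes and fibroblasts, was 11.3 to 36.0 CPM in eGFP, 11.1 to 21.6 in eGFP/tdTomato and 0.372 to 1.37 in tdTomato. The log2 fold change against tdTomato was 4.73 ± 0.49 and 5.00 ± 0.50 in eGFP/tdTomato and eGFP, and 5.43 and 5.68 without tdTomato replicate 5. Between eGFP and tdTomato the mural and fibroblast sums given above run the same way, 763 to 2110 CPM against 9.85 to 21.1. In eGFP/tdTomato these sums were 358 to 553 CPM, below those of eGFP, while Pdgfrb overlapped between these fractions. Within eGFP the sums did not follow Pdgfrb, which was highest, at 36.0 CPM, in replicate 3, where the sum was lowest. The part of mural cells and fibroblasts was not tested. Pdgfc, a ligand of the alpha receptor, was called in eGFP/tdTomato against tdTomato with a log2 fold change of 0.99 ± 0.31 and an adjusted p of 0.0267 by edgeR. That call was lost in 7 of the 12 fits that left out 1 library, down to 0.54 (adjusted p = 0.245) without eGFP/tdTomato replicate 3.

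Ligands of EGFR were divided between the fractions. Tgfa, which encodes TGF-alpha, was 280, 283, 431 and 294 CPM in tdTomato replicates 1, 2, 3 and 5, where Egfr was lowest. It was 13.1, 18.1, 22.9 and 19.8 CPM in eGFP/tdTomato and 9.08, 3.79, 9.22 and 8.04 CPM in eGFP, and no pair of fractions overlapped. By edgeR the log2 fold change was -4.12 ± 0.29 (adjusted p = 2.82e-08) for eGFP/tdTomato and -5.42 ± 0.31 (adjusted p = 3.47e-09) for eGFP, both against tdTomato. The GFP-bearing fractions differed by 1.29 ± 0.27 (adjusted p = 0.0149), which missed the threshold without the libraries numbered 5 (1.29, adjusted p = 0.17), without eGFP/tdTomato replicate 5 (1.27, adjusted p = 0.05) and in a fit of those fractions alone (1.21, adjusted p = 0.0564).

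Hbegf, which encodes HB-EGF, a ligand of EGFR and ERBB4, was highest where Egfr was highest. It was 117, 104, 150 and 135 CPM in eGFP/tdTomato replicates 1, 2, 3 and 5, 38.3, 74.8, 66.2 and 62.1 CPM in eGFP and 22.3, 19.2, 20.3 and 17.1 CPM in tdTomato, with no overlap. The log2 fold change was 2.68 ± 0.22 (adjusted p = 1.09e-07, edgeR) for eGFP/tdTomato against tdTomato and 1.61 ± 0.21 (adjusted p = 1.65e-05) for eGFP against tdTomato. It was 1.07 ± 0.20 (adjusted p = 0.00832) between eGFP/tdTomato and eGFP. That last call was lost without eGFP/tdTomato replicate 3 (0.92, adjusted p = 0.0952), without eGFP replicate 5 (1.05, adjusted p = 0.0753) or without all libraries numbered 5 (1.05, adjusted p = 0.121).

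Egf itself was 6.78 to 9 CPM in eGFP/tdTomato, 2.56 to 7.19 in eGFP and 2.68 to 4.01 in tdTomato. It was called in eGFP/tdTomato against tdTomato (log2 fold change 1.18 ± 0.31, adjusted p = 0.00882, edgeR). That call was lost with a covariate for the olfactory receptor background (0.91, adjusted p = 0.0865) and without the libraries numbered 5 (1.18, adjusted p = 0.0516). In eGFP against tdTomato the log2 fold change of Egf was 0.59 ± 0.31 (adjusted p = 0.148), and it was called without eGFP replicate 3 (0.81, adjusted p = 0.0265). Btc was at most 3.39 CPM and was called in eGFP against tdTomato (1.70 ± 0.50, adjusted p = 0.0144), a call lost without tdTomato replicate 3 (1.52, adjusted p = 0.0505) or without eGFP replicate 5 (1.5, adjusted p = 0.0572). Areg, Ereg, Epgn, Nrg2 and Nrg4 were at most 6.02 CPM in any library and were called in no comparison.

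**Figure D5:**
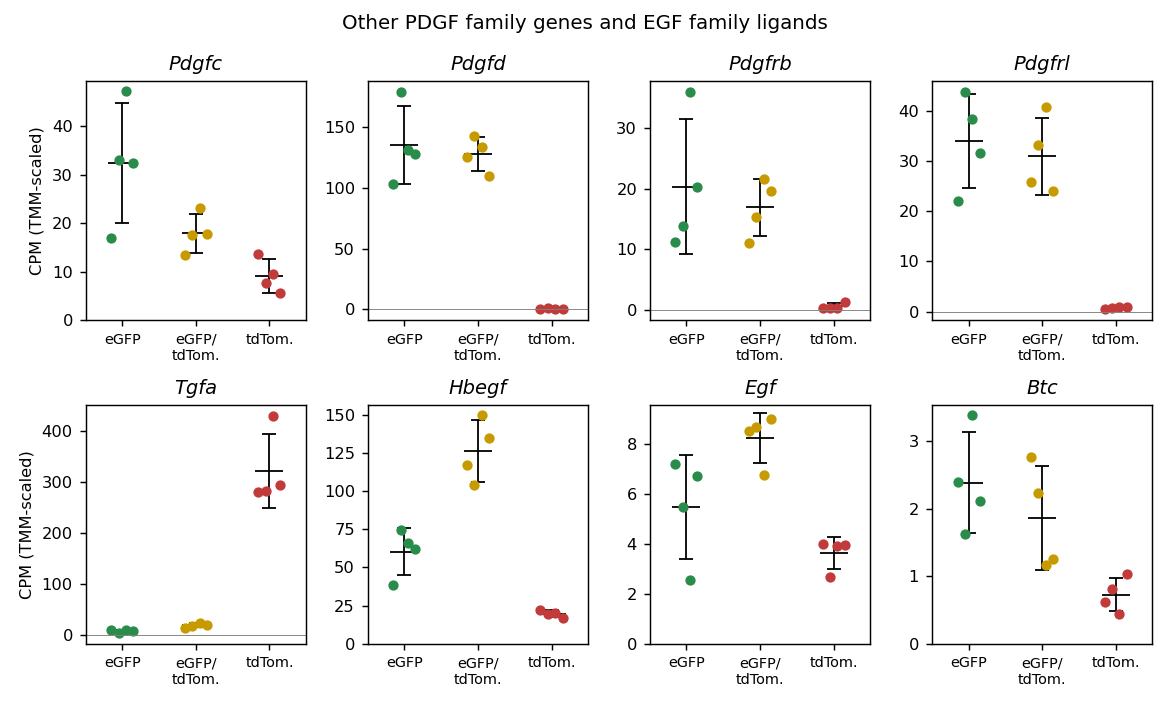
CPM (TMM-scaled, linear axes, a separate scale for each gene) of 4 other PDGF family genes (upper row) and 4 EGF family ligands (lower row) in every library; points are libraries, the long bar is the mean and the whiskers are 1 SD (n = 4). Pdgfd, Pdgfrb and Pdgfrl lie near 0 in tdTomato, where Tgfa is at 280 to 431 CPM.

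Genes that process these ligands or act below the receptors were counted list by list. Over all genes, 16.8% were called higher and 12.4% lower in eGFP/tdTomato than in tdTomato. In eGFP against tdTomato the shares were 20.4% and 14.9%, and in eGFP/tdTomato against eGFP 0.814% and 1.67%. Of 11 ligand-processing genes tested, 4 were higher and 3 lower in eGFP/tdTomato than in tdTomato (median log2 fold change 0.24 against 0.70 over all genes), and 4 higher and 4 lower in eGFP than in tdTomato (0.01 against 0.79). Adam19, a metalloprotease that sheds neuregulins, was lower in eGFP/tdTomato (2.71 against 55.7 CPM, log2 fold change -4.36 ± 0.43) and in eGFP (4.95 CPM, -3.50 ± 0.41). Bace1, the protease that cleaves neuregulin 1, averaged 59.3 CPM in eGFP and 398 in tdTomato (-2.75 ± 0.22), and Pcsk5, a proprotein convertase, 11.3 and 1.48 CPM (2.92 ± 0.36). Timp3, an inhibitor of shedding metalloproteases, averaged 570 CPM in eGFP/tdTomato and 41.9 in tdTomato (3.76 ± 0.29).

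Between eGFP/tdTomato and eGFP, 1 of the 11 was higher and 1 lower, against 0.814% and 1.67% of all genes. Timp3 (274 CPM in eGFP) had a log2 fold change of 1.05 ± 0.26 and an adjusted p of 0.0488 by edgeR. Bace2, a homologue of Bace1, averaged 15.4 and 35.3 CPM (-1.20 ± 0.26, adjusted p = 0.0204). Each of these calls was lost when single libraries were left out, with adjusted p up to 0.234 for Timp3 and 0.0982 for Bace2, and without the libraries numbered 5 (0.154 and 0.209).

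Of 42 adaptors and kinases, 4 were higher and 13 lower in eGFP/tdTomato than in tdTomato, and 3 higher and 17 lower in eGFP than in tdTomato, with a median log2 fold change of -0.32 in both against 0.70 and 0.79 over all genes. Fyn, a Src-family kinase of oligodendrocytes, averaged 1530 CPM in tdTomato, 155 in eGFP/tdTomato (-3.30 ± 0.23) and 109 in eGFP (-3.80 ± 0.24). Pik3r3, a regulatory subunit of PI 3-kinase, averaged 543, 46.2 (-3.55 ± 0.24) and 34.9 CPM (-3.96 ± 0.24) in the same order. Mapk3, which encodes the kinase ERK1, averaged 269 CPM in tdTomato and 29.9 in eGFP/tdTomato (-3.17 ± 0.27), and Plcg2, a phospholipase C, 74.9 CPM in tdTomato and 7.08 in eGFP (-3.40 ± 0.31). In eGFP/tdTomato against eGFP 1 of the 42 was called, where 2.49% of all genes were. It was the adaptor Shc3 (9.62 and 3.70 CPM, 1.38 ± 0.30, adjusted p = 0.0210 by edgeR). That call was lost without single libraries (adjusted p up to 0.1) and without the libraries numbered 5 (adjusted p = 0.26).

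Of 26 negative regulators and feedback targets tested, 12 were higher and 2 lower in eGFP/tdTomato than in tdTomato (median log2 fold change 0.82 against 0.70 over all genes), and 11 higher and 3 lower in eGFP than in tdTomato (0.84 against 0.79). The genes named first had the largest changes against tdTomato. Lrig1, a transmembrane inhibitor of ErbB receptors, averaged 218 CPM in eGFP/tdTomato, 127 in eGFP and 6.26 in tdTomato (5.12 ± 0.36 and 4.34 ± 0.35 against tdTomato). Socs3, a cytokine feedback inhibitor, averaged 202, 170 and 3.28 CPM (5.93 ± 0.50 and 5.69 ± 0.49). Etv4, an ETS factor induced by receptor tyrosine kinases, averaged 126 CPM in eGFP/tdTomato and 8.99 in tdTomato (3.81 ± 0.48), and the immediate early gene Egr1 885 CPM in eGFP and 77.1 in tdTomato (3.52 ± 0.42). Egr1 is also known to be induced by tissue dissociation. Spry4, a feedback inhibitor of the MAP kinase pathway, was the 1 gene of the 26 called between eGFP/tdTomato and eGFP (27.3 and 10.3 CPM, 1.41 ± 0.26, adjusted p = 0.00632 by edgeR), and it averaged 13.7 CPM in tdTomato. Of all genes 2.49% were called in that comparison of the GFP-bearing fractions.

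Of 13 receptor partners and scaffolds, 8 were higher and 2 lower in eGFP/tdTomato than in tdTomato (median 1.35 against 0.70), 9 higher and 2 lower in eGFP than in tdTomato (1.16 against 0.79), and none was called between eGFP/tdTomato and eGFP. Itga6, an integrin alpha subunit, averaged 168 CPM in eGFP/tdTomato, 153 in eGFP and 2.47 in tdTomato (6.09 ± 0.22 and 5.95 ± 0.22). Cd44, the hyaluronan receptor that associates with ErbB receptors, averaged 103, 146 and 2.40 CPM (5.41 ± 0.22 and 5.92 ± 0.23). Grip1, a PDZ scaffold that binds NG2, averaged 39.4, 32.7 and 8.03 CPM (2.29 ± 0.27 and 2.03 ± 0.27), the opposite direction to Cspg4 itself.

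Across the 12 libraries, the protein-coding genes most like each of the 10 in log2 CPM were searched among 11321 genes. These correlations describe 3 clusters of 4 libraries that share a fraction, and carry no test. Pdgfra was most like Arpc5 (r = 0.985), Cspg4 most like Bicd1 (0.987), Pdgfa most like Ptprd (0.995) and Erbb3 most like Frmd5 and St18 (0.992 each). Egfr was most like Il15ra (0.994) and Erbb2 most like Mmd (0.996). Erbb4 was most like Shprh (0.987) and Nrg1 most like Tmf1 (0.973), while the low gene Nrg3 reached 0.883 with Astn2.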

How the data were processed

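RNA libraries of 12 sorted samples were sequenced on a BGISEQ-500, per the labels' protocols. The authors deposited raw read counts per Ensembl gene for each library. STAR, HTSeq and the genome GRCm38 (mm10) are named in the submitters' processing notes, while versions, strand setting and annotation release are not given in the sources used here. Symbols, positions and merged exon lengths came from GENCODE M21 on GRCm38 (99.8% of 53465 identifiers matched), and promoters from RefSeq (GRCm38.p6). The 5 summary lines of each file (reads outside genes, ambiguous and multiply placed reads) were kept out of library sizes and tests and give the shares quoted.

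Counts of 12564767 to 36505583 per library were tested with edgeR 4.0.16 (quasi-likelihood, robust, TMM factors, its default expression filter, fraction as the only factor, 12 libraries in 1 fit) in R 4.3.3. P-values were adjusted by Benjamini-Hochberg over 29361 genes, with a threshold of 0.05. Ratios within a library (0.5 added to both counts) were compared by two-sided exact permutation tests, adjusted over 15 tests. Levels per kb were set against 1134 olfactory receptor genes as silent genes. Alternatives were DESeq2 1.42.0, RLE factors, other filters, limma-voom (limma 3.58.1), fits of only the fractions compared, a replicate block, covariates and leaving out libraries. The covariate for the olfactory receptor background, the fits without the libraries numbered 5 and the subtraction of that background were chosen after seeing the data. The edgeR fit was tested on simulated counts, for the comparison of eGFP/tdTomato with eGFP. No libraries held identical counts.

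The members and gene lists were chosen with earlier results of these data known. All 10 genes are named, as may be the other PDGF and EGF family genes. From each other list, up to 3 genes per comparison are named, called genes without overlap between libraries, by largest fold change, whose higher fraction averaged 5 CPM or more. For likeness, the 3 protein-coding genes with the highest Pearson correlation were taken, at a mean of at least 5 CPM, and some of them are not reported here. Of 261 list symbols 1 was unmatched. Other genes named are markers, chosen after their values were seen.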

Additional observations from a re-analysis of the deposited data

Results flagged for a closer look

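In 6 of 69 groups of 4 values examined, the gap between the most extreme library and its nearest neighbour exceeded the 95% critical value of Dixon's test. Chance flags about 1 in 20 such groups. Among the 10 genes, Erbb4 in tdTomato had 1 low library at 113 CPM, with the next at 155 CPM. The log2 ratio of Pdgfra to Cspg4 in tdTomato had 1 high library at 2.32, with the next at 1.46. The log2 ratio of Egfr to Erbb2 in eGFP/tdTomato had 1 high library at 2.03, with the next at 1.61. Among the other ligands and receptors, Tgfa in tdTomato had 1 high library at 431 CPM (next 294), Pdgfrb in tdTomato 1 high library at 1.37 CPM (next 0.401) and Egf in tdTomato 1 low library at 2.68 CPM (next 3.90).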

How the results depend on the processing

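The 8 of the 10 genes called against tdTomato kept their call and direction in 176 of 176 alternative fits in each of the comparisons with tdTomato, with moves of up to 0.64 and 1.22 on the log2 scale. Between eGFP/tdTomato and eGFP the count of the 10 genes called was 0, with 4 at an unadjusted p under 0.05. It became 2 under DESeq2 (Cspg4, Egfr), 1 under limma-voom (Egfr), 1 with the filter of 1 CPM in 4 libraries (Cspg4), 1 with the olfactory receptor covariate (Cspg4) and 0 to 2 with 1 library left out (without eGFP replicate 3, Egfr and Erbb2, and without tdTomato replicate 5, Cspg4). Over all genes that comparison gave 730 calls, 1498 under DESeq2, 1175 with the covariate for reads outside genes, 1380 with the olfactory receptor covariate, 261 without the libraries numbered 5, and 450 to 1008 with 1 library left out. Same-numbered libraries of different fractions correlated at -0.23 to 0.60 in their deviations from the fraction means (median 0.19 over 12 pairs, against -0.10 for differently numbered pairs), and 7 of 12 libraries correlated best with their own number, a hint from the data and not the design. The labels do not say what a number shares and not every pair correlated above 0.1, the condition set for pairing, so the block was kept as an alternative. With the replicate block 1239 genes were called and the log2 fold change of Erbb3 between eGFP/tdTomato and eGFP was 0.06 in place of -0.15; the block changed the call of none of the 10 genes.

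Reversals were limited to values that were not called. Erbb3 between eGFP/tdTomato and eGFP became 0.29 with limma-voom, 0.44 with the covariate for reads outside genes, 0.02 with the olfactory receptor covariate and 0.65 without eGFP replicate 1 (-0.42 to 0.65 with 1 library left out). Against tdTomato, Pdgfb in eGFP/tdTomato became -0.22 and -0.56 with those covariates, and in eGFP -0.14 with the latter. Nrg3 in eGFP/tdTomato against tdTomato became -0.02 in a fit of those fractions alone, -0.14 without the libraries numbered 5 and -0.10 to 0.39 with 1 library left out. With 1 library left out, eGFP/tdTomato against eGFP ranged over -0.25 to 0.10 for Pdgfd, -0.52 to 0.18 for Pdgfrb and -0.36 to 0.02 for Pdgfrl. Ratios ranged over -0.69 to 0.46 for Erbb3 to Erbb4 and -0.80 to 1.48 for Pdgfa to Pdgfb (eGFP/tdTomato against eGFP), and -0.15 to 0.33 for Egfr to Erbb2 (eGFP against tdTomato). The cause of these changes was not tested. Ratio tests with 3 against 4 libraries (smallest p 0.0571) or with sign-flipped pairs (0.125) cannot pass the threshold and give no count. Depth limits Pdgfb, which is at background, and, less the olfactory receptor background, the mean CPM of Cspg4 in eGFP (7.00 to 4.04), Nrg1 in eGFP (6.00 to 3.43), Nrg3 in eGFP (4.52 to 2.83) and in eGFP/tdTomato (2.75 to 1.31). With the same subtraction Erbb3 in eGFP/tdTomato went from 3.84 to 2.57.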
